A study of Mus musculus with 18 samples.

Results

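MHC class II antigen presentation was described through 7 mouse genes out of 24602 in the count table. The genes were taken by name, with earlier results of these data known. H2-Aa and H2-Ab1 encode the α and β chains of the A molecule, and H2-Eb1 encodes the β chain of the E molecule. Cd74 encodes the invariant chain, H2-DMa and H2-DMb1 encode the chains of the peptide-loading DM molecule, and Ciita encodes the class II transactivator. All 7 genes passed the filter on low counts in both RNA fractions, with 135 to 19880 counts per gene and library. The lowest belonged to Ciita and the highest to Cd74. RNA-seq libraries of mice of the strain given as 129S1/SvlmJ fell into 6 groups of 3 libraries. Nuclear RNA and total RNA were each measured in animals homozygous for the R388W allele of Nup93 (Hom), heterozygous for it (Het) and wild type (WT). Nup93 encodes a structural protein of the nuclear pore, and the allele was introduced as a knock-in. The sample labels gave all 3 genotypes and only a mouse tissue, while the series description spoke of podocytes, the epithelium around glomerular capillaries, and of the homozygous and wild-type genotypes alone. Age is not given in the sources used here.

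MHC class II molecules show peptides from endocytosed protein to CD4+ T cells. The α and β chains pair in the endoplasmic reticulum with the invariant chain, which blocks the groove and directs the complex to endosomes. Cathepsin S there trims the invariant chain to a short fragment, and DM exchanges that fragment for other peptides. Ciita is not itself a DNA-binding factor. It is recruited by factors bound to the X, X2 and Y boxes of class II promoters, the RFX complex, CREB and NF-Y. Dendritic cells, macrophages and B cells express these genes constitutively, and interferon gamma can induce Ciita in other cells, renal epithelium included. In C57BL/6 mice the gene for the E α chain is disabled by a promoter deletion, so that the E molecule is not made although H2-Eb1 is transcribed.

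Promoter windows of 250 bases before to 50 bases after the gene start were found in RefSeq (GRCm38.p6) for 4 of the 7 genes, in 5 windows, and H2-Ab1, Cd74 and Ciita were not matched. Both strands were searched for a core of the X box as ACNGATG, the X2 box as TGACGTCA and the Y box as GATTGG, and no matches overlapped in the windows printed. The X core letters were held by 9.85% of all 32851 promoter windows, the X2 letters by 1.79% and the Y letters by 16.1%, so a match to X core or Y letters alone is common. The H2-Eb1 and H2-DMb1 windows held X core and Y letters on the same strand, with 28 and 29 bases between their first bases. In H2-Eb1 the X core match began at base -88 and the Y match at base -60, with a second Y match on the opposite strand at -35. In H2-DMb1 they began at -91 and -62. The H2-Aa window held X2 letters at -74 and Y letters at -49, a spacing of 25 bases, and its X core match lay on the opposite strand at -232. Of the 2 H2-DMa windows, 1 held a Y match, at -199. These 3 windows are shown because they hold letters of the boxes through which Ciita is known to act, with the matches in capitals. They lie at chr17:34287774-34288073 on the minus strand (H2-Aa), chr17:34305617-34305916 on the plus strand (H2-Eb1) and chr17:34152941-34153240 on the plus strand (H2-DMb1), all in GRCm38.p6, and are written 5′ to 3′ along the gene.
H2-Aa: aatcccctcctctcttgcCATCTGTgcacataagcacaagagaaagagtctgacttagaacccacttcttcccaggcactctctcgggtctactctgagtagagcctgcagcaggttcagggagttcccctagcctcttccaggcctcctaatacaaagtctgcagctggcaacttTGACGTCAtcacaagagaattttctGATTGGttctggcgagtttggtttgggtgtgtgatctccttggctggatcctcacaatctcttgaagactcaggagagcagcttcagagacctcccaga
H2-Eb1: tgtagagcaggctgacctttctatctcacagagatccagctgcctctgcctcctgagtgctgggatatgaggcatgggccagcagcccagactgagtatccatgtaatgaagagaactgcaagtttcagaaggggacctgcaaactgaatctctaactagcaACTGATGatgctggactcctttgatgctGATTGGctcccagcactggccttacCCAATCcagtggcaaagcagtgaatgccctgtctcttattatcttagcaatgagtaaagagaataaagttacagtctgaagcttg
H2-DMb1: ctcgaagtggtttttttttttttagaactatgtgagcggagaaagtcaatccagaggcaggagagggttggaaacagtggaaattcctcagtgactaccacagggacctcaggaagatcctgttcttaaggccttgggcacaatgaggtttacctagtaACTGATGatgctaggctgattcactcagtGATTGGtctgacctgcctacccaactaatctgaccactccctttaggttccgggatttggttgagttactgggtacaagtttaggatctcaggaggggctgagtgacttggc

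Libraries held 17405493 to 23462056 counts, and 17248 to 18021 genes had at least 1 count. Total_WT replicate 1 was deposited with 200140709 counts and was in 0 genes smaller than all 9 nuclear columns added up, so this nuclear total was subtracted and 19034520 counts were used. Total_Hom replicate 2 also stood apart, with 7.12% of its counts in the ribosomal RNA gene Rn45s, against 0.110% to 1.02% in the other libraries. Nup93 itself averaged 15.9 to 22.6 CPM (counts brought to a common library size with TMM factors) in the 6 groups, and a point mutation of this kind cannot be checked by its count. Xist averaged 504 CPM in nuclear Hom, 516 CPM in nuclear Het and 346 CPM in total WT libraries, and 0.538 to 1.2 CPM in the other 3 groups, where the Y-linked genes were high. Within a fraction, a contrast of either mutant genotype against WT, like any contrast of nuclear against total RNA, therefore sets Xist-high libraries against Xist-low ones, and genotype or fraction cannot be told apart from this split. Only Hom against Het within a fraction is free of this split, although low Y-linked counts still differed between the nuclear groups. The Y-linked genes summed to 0.609 CPM in nuclear Hom and 2.59 CPM in nuclear Het libraries, against 162 CPM in nuclear WT libraries. The source of this difference was not tested. The labels give no sex, and whether group labels had been exchanged, which would bear on every contrast against WT, was not tested. The podocytes of the series description were checked against 9 podocyte markers, all of them detected, which summed to 387.9 to 601 CPM per group. The 9 proximal tubule markers summed to far more and differed between the groups, at 30535 CPM in nuclear Hom, 29137 CPM in nuclear Het and 46388 CPM in nuclear WT, and 30507 CPM in total Hom, 52227 CPM in total Het and 31418 CPM in total WT libraries. Of these 9 markers, 7 were lower in nuclear Hom and 8 in nuclear Het against WT, and 7 were higher in total Het against WT. Over all tested genes, 27.8% were called lower in nuclear Hom, 4793 of 15112 lower in nuclear Het and 30.9% higher in total Het. The part of the proximal tubule markers in the class II results was not tested. The labels do not state whether replicate libraries are different animals, and p-values here reflect the variation among libraries alone, possibly technical.

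Class II transcripts were most abundant in nuclear RNA of Het animals and least abundant in nuclear RNA of Hom animals. In bulk RNA, fewer cells of a type and less RNA per cell cannot be told apart. The 7 genes together had 666, 692 and 672 CPM in nuclear Hom, 2046, 2007 and 1947 CPM in nuclear Het, and 852, 878 and 859 CPM in nuclear WT libraries. In total RNA the sums were 1407, 1406 and 1396 CPM in Hom, 1402, 1376 and 1379 CPM in Het, and 1053, 1012 and 1045 CPM in WT libraries. The 3 nuclear groups did not overlap each other, and in total RNA both mutant groups lay above WT. Per kilobase of gene length, the mean level over the 18 libraries was 379 CPM for Cd74, 193 CPM for H2-Ab1, 183 CPM for H2-Aa and 120.1 CPM for H2-Eb1. The DM chains were far lower, at 25.6 CPM per kilobase for H2-DMb1 and 12 CPM per kilobase for H2-DMa, and Ciita was lowest at 2.04 CPM per kilobase. Nuclear Het ranked first of the 6 groups in 6 of the 7 genes. The exception was H2-DMb1, where total Hom averaged 41.4 CPM and nuclear Het 41.3 CPM with overlapping ranges. Nuclear Hom ranked last in all 7, although its range overlapped that of nuclear WT for H2-Eb1 and Ciita.

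**Figure D1:**
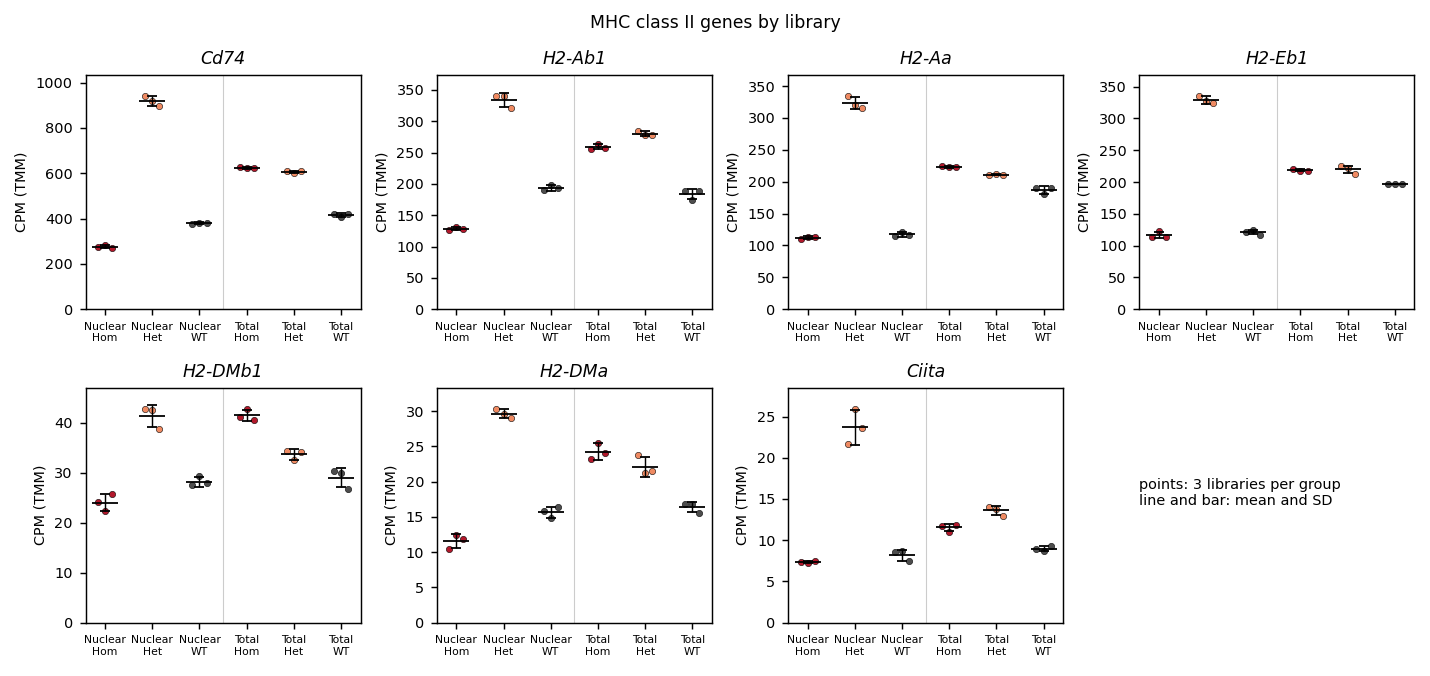
CPM of each class II gene in every library, with points for the 3 libraries of a group and the mean and SD as line and bar. The nuclear Het libraries stand highest in each panel except that of H2-DMb1, where total Hom libraries lie as high, and nuclear Hom libraries have the lowest mean throughout.

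The first question was how class II transcripts of nuclear RNA differed with 1 copy of the mutant allele. All 7 genes were higher in nuclear Het than in nuclear WT libraries (edgeR, adjusted p under 0.05), where 32.8% of 15112 tested genes were called higher. Their median log2 fold change was 1.28, beside 0.02 over all tested genes. The classical chains and the invariant chain led in level. Cd74 had 941, 919.8 and 895 CPM in nuclear Het libraries and 375, 382 and 381 CPM in nuclear WT libraries. The lowest Het library was far above the highest WT library, and the log2 fold change was 1.28 ± 0.02 (SE, edgeR adjusted p = 5.9e-65). H2-Aa had 335, 321 and 316 CPM in nuclear Het and 114, 122 and 116 CPM in nuclear WT libraries. Its α chain transcript thus rose by 1.47 ± 0.03 on the log2 scale (edgeR adjusted p = 7.76e-62), with no overlap between the groups. H2-Eb1 averaged 329 ± 5.99 CPM in nuclear Het and 121 ± 3.44 CPM in nuclear WT libraries (SD, n = 3 each) and rose by nearly the same log2 amount, 1.44 ± 0.03.

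H2-Ab1, the β partner of H2-Aa, rose less. It had 339.7, 340.4 and 321 CPM in nuclear Het and 189.7, 198 and 193 CPM in nuclear WT libraries. The groups did not overlap, and the log2 fold change was 0.79 ± 0.03 (edgeR adjusted p = 4.75e-43). The DM genes also rose without overlap. H2-DMa averaged 29.6 ± 0.659 CPM in nuclear Het and 15.7 ± 0.768 CPM in nuclear WT libraries, a log2 fold change of 0.92 ± 0.07. H2-DMb1 averaged 41.3 ± 2.20 CPM in nuclear Het and 28.2 ± 0.991 CPM in nuclear WT libraries, a log2 fold change of 0.56 ± 0.06, the smallest of the 7. H2-DMb1 lies beside its close paralog H2-DMb2, and reads shared between them could have been split by the counting. H2-DMa overlaps Brd2 in RefSeq, and since no source used here gives the strand option used for counting, its count is uncertain. Brd2 itself was not called in this comparison (log2 -0.06 ± 0.03). Ciita, the transactivator, had the largest fold change. It had 21.6, 25.9 and 23.6 CPM in nuclear Het and 8.52, 8.62 and 7.41 CPM in nuclear WT libraries, a 2.89-fold difference (log2 1.53 ± 0.08, edgeR adjusted p = 5.02e-30).

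Between nuclear Hom and nuclear Het libraries, which share Xist status, all 7 genes were lower in Hom, where 21.8% of tested genes were called lower. The median log2 fold change of the 7 genes was -1.5, beside -0.001 over all genes. Cd74 had 273, 283 and 272 CPM in nuclear Hom libraries, a 0.300-fold level of Het (log2 -1.74 ± 0.02, edgeR adjusted p = 3.92e-74). Ciita had 7.36, 7.22 and 7.42 CPM in nuclear Hom libraries and fell by 1.69 ± 0.08 on the log2 scale. H2-Aa, H2-Eb1, H2-Ab1 and H2-DMa fell by 1.53, 1.5, 1.38 and 1.35 on the log2 scale, and H2-DMb1 fell least, by 0.79. No gene had a nuclear Hom library within the range of the nuclear Het libraries.

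Nuclear Hom and nuclear WT libraries were closer. Of the 7 genes 4 were lower in nuclear Hom, where 27.8% of tested genes were called lower, and 3 were not called. H2-Ab1 had 126, 131 and 129 CPM in nuclear Hom libraries, all below the WT values given above (log2 -0.59 ± 0.03, edgeR adjusted p = 2.4e-32). Cd74, H2-DMa and H2-DMb1 fell by 0.46, 0.43 and 0.23 on the log2 scale, each without overlap. H2-Aa had 111, 114 and 113 CPM in nuclear Hom libraries, just below the WT range, and its log2 difference of -0.06 ± 0.03 was not called (edgeR adjusted p = 0.106). H2-Eb1 at log2 -0.05 ± 0.03 and Ciita at log2 -0.16 ± 0.10 had ranges that overlapped WT and were not called either (edgeR adjusted p = 0.166 and 0.183). With scaling by library totals alone the values of H2-Aa and H2-Eb1 were 0.06 and 0.07, with H2-Eb1 called higher and H2-DMb1, at log2 -0.11, no longer called. Without Nuclear_Hom replicate 2 H2-Eb1 was called lower (log2 -0.09, edgeR adjusted p = 0.0270).

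**Figure D2:**
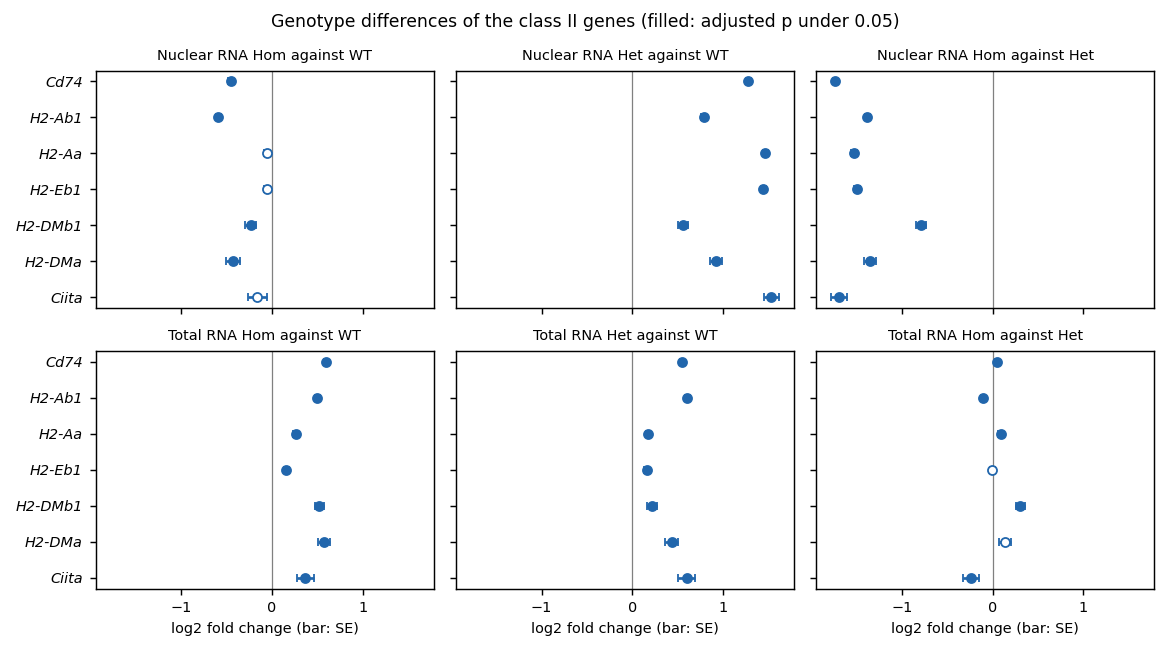
Log2 fold changes of the 7 genes in the 6 genotype comparisons, first group of each title over the second, with SE bars and filled points for edgeR adjusted p under 0.05. The nuclear Het differences lie between 0.56 and 1.53, the nuclear Hom against Het differences between -1.74 and -0.79, and the total RNA differences from WT between 0.16 and 0.61. Scaling by library totals alone turned the signs of H2-Aa and H2-Eb1 in nuclear Hom against WT and in total Het against WT, and those of H2-Ab1 and H2-Eb1 in total Hom against Het.

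In total RNA both mutant genotypes were above WT, by less than nuclear Het. All 7 genes were higher in total Hom than in total WT libraries, where 30.6% of 15051 tested genes were called higher, with a median log2 fold change of 0.50. All 7 were also higher in total Het than in total WT, where 30.9% of genes were called higher, with a median of 0.44, although scaling by library totals alone gave H2-Aa and H2-Eb1 small negative values there (-0.01 and -0.02) and called 4 genes. The 2 comparisons share the WT libraries. With Total_WT replicate 1 and Total_Hom replicate 2 left out, 7 and 7 genes were again called higher.

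Cd74 had 629, 622 and 622 CPM in total Hom, 609, 599 and 609 CPM in total Het, and 420.1, 405 and 418 CPM in total WT libraries. WT lay below both mutant groups, and the log2 fold changes were 0.60 ± 0.02 for Hom and 0.55 ± 0.02 for Het (edgeR adjusted p = 1.4e-61 and 2.04e-57). H2-Ab1 had 256, 264 and 258 CPM in total Hom, 284, 277 and 279 CPM in total Het, and 189, 175 and 188 CPM in total WT libraries. Here the order of the mutant groups was the opposite of that for Cd74, with log2 fold changes of 0.50 ± 0.03 for Hom and 0.61 ± 0.03 for Het. H2-Aa differed less, with 225, 222 and 223 CPM in total Hom, 211, 211 and 210.1 CPM in total Het, and 191, 181 and 189 CPM in total WT libraries. Its log2 fold change was 0.26 ± 0.03 for Hom and 0.17 ± 0.03 for Het, and H2-Eb1 stood at 0.16 ± 0.03 in both. Ciita had 11.7, 11 and 11.9 CPM in total Hom, 14.1, 13.8 and 13.0 CPM in total Het, and 8.97, 8.69 and 9.26 CPM in total WT libraries. The 3 groups were apart, with Het highest (log2 0.37 ± 0.09 for Hom and 0.60 ± 0.09 for Het). The DM genes were above WT in both genotypes. H2-DMa had log2 fold changes of 0.57 ± 0.07 for Hom and 0.44 ± 0.07 for Het, and H2-DMb1 had 0.52 ± 0.05 for Hom and 0.22 ± 0.06 for Het.

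Total Hom and total Het libraries, which share Xist status, differed little and not in 1 direction. H2-Aa, Cd74 and H2-DMb1 were called higher in Hom, 3 of 7 where 32.9% of genes were, and H2-Ab1 and Ciita were called lower, 2 of 7 where 34.1% of genes were. The log2 differences were 0.09 ± 0.03 for H2-Aa, 0.05 ± 0.02 for Cd74 and 0.31 ± 0.05 for H2-DMb1, against -0.11 ± 0.03 for H2-Ab1 and -0.24 ± 0.09 for Ciita. Under library totals alone the H2-Ab1 value was 0.05. H2-DMa at 0.14 ± 0.07 was not called (edgeR adjusted p = 0.0711), nor was H2-Eb1 at -0.00 ± 0.03 (0.938), whose sign depended on the setting. Shares of called genes near those of the whole table make this comparison no result about the 7 genes as a group. Without Total_Hom replicate 2 the Ciita call was lost (log2 -0.20, edgeR adjusted p = 0.0577), as it was without Total_Het replicate 1 (log2 -0.21, 0.0614), and without Total_Het replicate 2 the Cd74 call was lost (log2 0.04, 0.138). H2-DMa was called higher without Total_Het replicate 1 (log2 0.19, edgeR adjusted p = 0.0240) and without Total_Hom replicate 1 (log2 0.17, 0.0364).

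The second question was how the 2 fractions compared. In Het animals nuclear RNA was above total RNA for all 7 genes, where 33.4% of 15410 tested genes were called higher, with a median log2 fold change of 0.58. In Hom animals it was below total RNA for all 7, where 29.8% were called lower, with a median of -0.99. In WT animals the genes split. H2-Aa and H2-Eb1 had log2 differences of -0.67 ± 0.03 and -0.70 ± 0.03 and Cd74 of -0.13 ± 0.02, so that 3 of 7 were lower where 30.8% of genes were. H2-Ab1 was slightly higher (log2 0.07 ± 0.03, edgeR adjusted p = 0.0166), 1 of 7 where 30.9% were, but stood at -0.08 under library totals alone. The remaining 3 were not called. The call of H2-Ab1 was also lost with Total_WT replicate 1 as deposited (log2 0.01), without Nuclear_WT replicate 2 (log2 0.06) and without Total_WT replicate 2 (log2 0.04).

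The nuclear-to-total ratio was then compared between genotypes by the interaction term of 1 fit over all 18 libraries. In Hom relative to WT it was lower for all 7 genes, where 27.7% of genes were called lower, and the log2 differences ran from -1.09 for H2-Ab1 to -0.20 for H2-Eb1. In Het relative to WT it was higher for all 7, where 37.8% were called higher, from 0.18 for H2-Ab1 to 1.29 for H2-Aa. In Hom relative to Het it was lower for all 7, where 31.9% were called lower, from -1.78 for Cd74 to -1.09 for H2-DMb1. H2-Ab1 and H2-Aa thus stood at opposite ends of the Het range although they encode partner chains. In Hom relative to WT the H2-Eb1 call was lost under library totals alone (log2 -0.06). The Ciita call there was lost with Total_WT replicate 1 as deposited (log2 -0.28). The nuclear and total libraries of a genotype differ in Xist status, so a ratio between them cannot be told apart from a difference between the animals they came from.

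The partner chains did not keep a fixed proportion. Within a library the count of H2-Ab1 per count of H2-Aa was 1.14, 1.15 and 1.14 in nuclear Hom, 1.02, 1.06 and 1.02 in nuclear Het, and 1.66, 1.63 and 1.66 in nuclear WT libraries. In total RNA it was 1.14, 1.19 and 1.16 in Hom, 1.35, 1.31 and 1.33 in Het, and 0.988, 0.967 and 0.995 in WT libraries. Nuclear WT stood highest and total WT lowest, and none of the 6 genotype pairs within a fraction overlapped. With 3 libraries against 3 an exact two-sided permutation test cannot give a p below 0.1, and it gave 0.1 for each of these 6 pairs. H2-Eb1 per H2-Aa was far steadier, with group means of 1.04, 1.02 and 1.03 in nuclear Hom, Het and WT and 0.980, 1.04 and 1.05 in total Hom, Het and WT libraries. Its nuclear groups overlapped (exact permutation p = 0.4 to 0.8), and total Hom lay below both other total groups. Cd74 per H2-Aa averaged 2.45 in nuclear Hom, 2.84 in nuclear Het and 3.23 in nuclear WT, and 2.79 in total Hom, 2.88 in total Het and 2.22 in total WT libraries. A ratio within a library does not depend on the scaling between libraries.

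**Figure D3:**
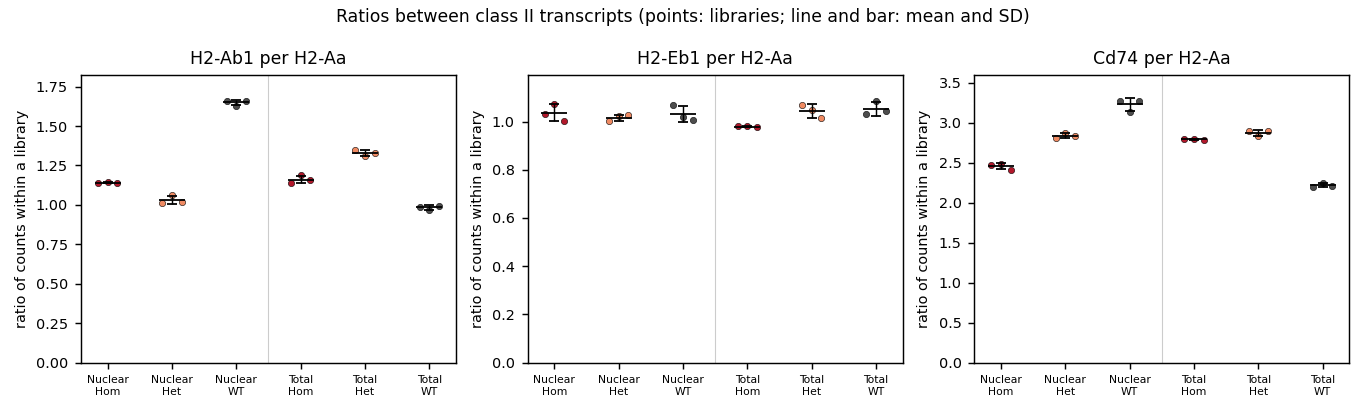
Ratios of counts between class II transcripts in each library, with the mean and SD of 3 libraries as line and bar. H2-Ab1 per H2-Aa ranges from 0.967 to 1.66 over the libraries, with nuclear WT highest and total WT lowest, while the group means of H2-Eb1 per H2-Aa stay between 0.980 and 1.05.

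Markers of leukocytes moved with the nuclear Het level. The 6 pan-leukocyte markers summed to 53.9 to 57.7 CPM in nuclear Hom, 179.6 to 190.2 CPM in nuclear Het and 38.8 to 42.0 CPM in nuclear WT libraries. All 6 were called higher in nuclear Het against WT and lower in nuclear Hom against Het. Of all tested genes 32.8% and 21.8% were called so. Ptprc, the pan-leukocyte phosphatase CD45, changed by log2 2.09 ± 0.08 and -1.70 ± 0.07 in these comparisons. The same directions held for 10 of 11 tested macrophage markers in both. Of 11 tested dendritic cell markers 11 were higher in nuclear Het against WT and 10 lower in nuclear Hom against Het, and of 9 B cell markers 9 were higher and 8 lower. Of the B cell markers, Pax5 was at 0 in nuclear WT libraries. No other gene of these lists was at 0 in a whole group. Their part in the class II result was not tested.

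Between nuclear Hom and nuclear WT libraries, 5 of 6 pan-leukocyte, 8 of 11 macrophage and 8 of 9 B cell markers were called higher in Hom, with 0 lower, where 26.5% of all tested genes were called higher, while 4 class II genes were lower and 0 higher. The 3 of 11 dendritic cell markers called higher (median log2 0.06) and the 1 of 4 neutrophil markers were near that share. The B cell receptor gene Cd79a had 3.53 ± 0.203 CPM in nuclear Hom and 0.259 ± 0.114 CPM in nuclear WT libraries (SD, n = 3 each; log2 3.75 ± 0.28), and Lyz2, a myeloid lysozyme gene, differed by log2 1.16 ± 0.04. The class II sum per pan-leukocyte sum was 12 to 12.4 in nuclear Hom, 10.6 to 11.2 in nuclear Het and 20.9 to 22.0 in nuclear WT libraries. In total RNA the pan-leukocyte sums were 83.1 to 86.7 CPM in Hom, 87.0 to 97.0 CPM in Het and 76.6 to 86.6 CPM in WT libraries. Hom and WT overlapped and Het lay just above both, and 1 and 2 of 6 markers were called higher in Hom and Het against WT. Of 11 macrophage markers 2 were higher and 1 lower in total Hom against WT (median log2 0.08), and 2 were higher and 2 lower in total Het against WT (median log2 -0.0025). The lower one in Hom was Csf1r, the receptor for a macrophage growth factor, at 49.8 CPM in total Hom and 119.7 CPM in total WT libraries. Neutrophil markers were higher in 4 of 4 tested in total Hom and 3 of 4 in total Het against WT, with mean sums of 46.4 CPM in total Hom, 17.9 CPM in total Het and 8.35 CPM in total WT libraries. Plasma cell markers were higher in 4 of 5 in both comparisons, and B cell markers in 3 of 7 tested in Hom and 4 of 7 in Het, with 0 lower, beside the shares of 30.6% and 30.9% over all genes. B cell marker sums were 15.6 to 16.5 CPM in total Hom, 18.1 to 19.3 CPM in total Het and 7.60 to 9.22 CPM in total WT libraries, and Jchain, which links polymeric antibodies, averaged 639 CPM in total Hom, 783 CPM in total Het and 94.6 CPM in total WT libraries. Whether any of these cells set the class II level was not tested.

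**Figure D4:**
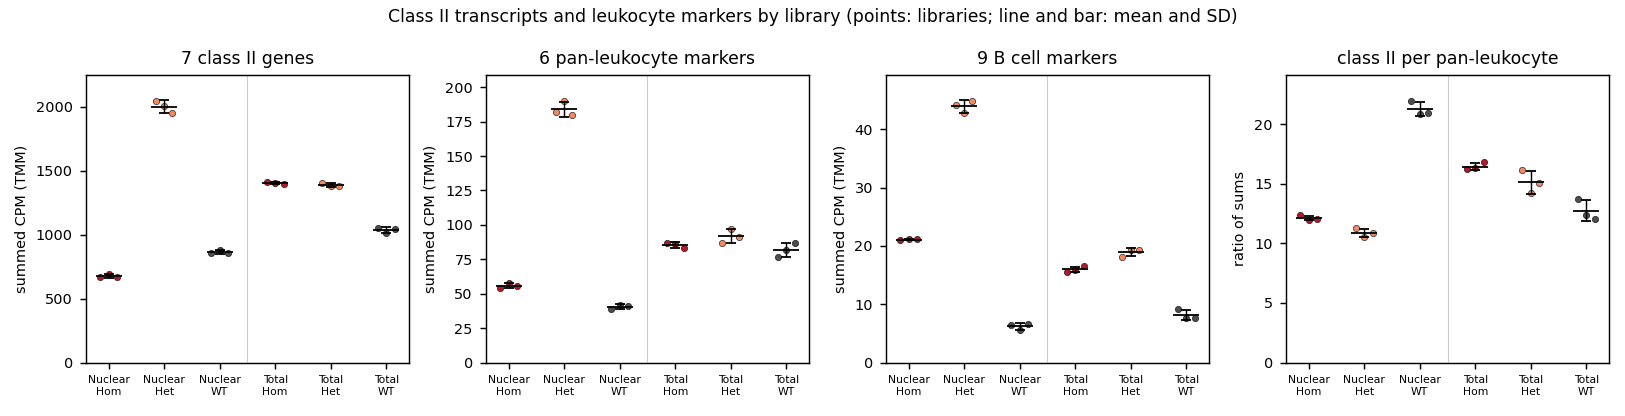
Summed CPM of the 7 class II genes, of 6 pan-leukocyte markers and of 9 B cell markers in each library, and the ratio of the first to the second, with the mean and SD of 3 libraries as line and bar. Both marker sums are highest in nuclear Het, and the ratio is highest in nuclear WT libraries.

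Genes that act before and beside the class II chains were examined as lists. Other class II chain genes were also higher in nuclear Het. H2-DMb2, H2-Ob, H2-Eb2 and H2-Oa, the 4 tested of 6 listed, were higher in nuclear Het against WT (log2 2.49, 1.79, 4.27 and 1.59). All 4 were lower in nuclear Hom against Het. Over all tested genes 32.8% were called higher in the former and 21.8% lower in the latter. H2-Oa and H2-Ob encode DO, a modulator of DM known from B cells and thymus. They averaged 1.23 and 2.52 CPM in nuclear Hom, 3.35 and 8.14 CPM in nuclear Het, and 1.12 and 2.34 CPM in nuclear WT libraries. In total RNA they fell in Hom against WT (log2 -0.69 ± 0.25 and -0.52 ± 0.20), opposite to the 7 main genes, while H2-DMb2 rose (log2 1.36 ± 0.20). H2-Ob ranges overlapped there, at 1.32 to 2.36 CPM in total Hom and 2.08 to 3.17 CPM in total WT libraries. The opposite direction was not seen in total Het against WT, where 2 of the 3 tested were higher and 0 lower. Of all tested genes 30.9% were called higher there. H2-Ea-ps, the disabled E α gene, averaged 0.0158 CPM in nuclear Het and was at 0 in the other 5 groups.

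The DNA-binding factors moved little. Of 7 promoter factors 2 were higher and 1 lower in nuclear Het against WT, near the 32.8% of tested genes called higher. Rfx5 stood at log2 0.30 ± 0.08, Rfxap at 0.28 ± 0.08 and Nfya at -0.19 ± 0.05, with a list median of 0.03. In total RNA Nfya stood out, at log2 0.77 ± 0.05 in Het against WT. Of 8 genes on the route from interferon gamma to Ciita, 5 were higher and 1 lower in nuclear Het against WT. The share of higher calls over all tested genes was again 32.8%. Irf1, an interferon-induced factor, changed by log2 0.86 ± 0.06 in Het against WT and -0.68 ± 0.06 in Hom against Het. In total Hom against WT, where all 7 class II genes rose, 3 of the 8 were higher and 2 lower. That is near the 30.6% of tested genes called higher there.

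Among 10 tested genes of lysosomal loading and turnover, 6 were higher and 2 lower in nuclear Het against WT. Over all tested genes 32.8% were called higher there. Ctss, the cathepsin that trims the invariant chain, averaged 11.8 ± 0.489 CPM in nuclear Hom, 53.1 ± 0.0727 CPM in nuclear Het and 10.2 ± 0.787 CPM in nuclear WT libraries. Its log2 change in Het against WT was above that of each of the 7 class II genes (2.39 ± 0.06). March1, a ubiquitin ligase that turns over class II at the surface, rose by 0.76 ± 0.12 and Cd83, which opposes it, by 1.67 ± 0.15, while legumain (Lgmn) fell by 0.18 ± 0.02 on the log2 scale. Class I presentation genes also moved in nuclear RNA. Of 15 genes 12 were higher and 3 lower in nuclear Het against WT, and 12 were lower and 3 higher in nuclear Hom against Het. Over all tested genes 32.8% were called higher in the former and 21.8% lower in the latter. B2m, the class I light chain, changed by log2 1.38 ± 0.03 and -1.07 ± 0.03, and the immunoproteasome gene Psmb8 by 1.90 ± 0.07 and -1.22 ± 0.06. In nuclear Hom against WT 8 of the 15 were higher and 4 lower, unlike class II. Over all tested genes 26.5% were called higher there and 27.8% lower. In total RNA the class I genes were split. In Hom against WT 5 were higher and 5 lower, near the shares over all genes (30.6% higher, 4671 of 15051 lower). In Het against WT 7 were higher and 4 lower, where 30.9% of tested genes were called higher.

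Of the 7 genes 5 lie in the MHC region of chromosome 17, and Cd74 and Ciita lie elsewhere. Along the 31 genes of the table from H2-K1 to Notch4, in the gene order of GRCm38.p6, 17 others were tested. In nuclear Het against WT, where 32.8% of tested genes were called higher, 10 of the 17 were higher, 2 lower and 5 not called. The higher ones were BC051142 and the antigen presentation genes H2-K1, Psmb8, Psmb9, Tap1, Tap2, H2-Oa, H2-Ob, H2-DMb2 and H2-Eb2. Of these, H2-Eb2 passed the filter on low counts only through the nuclear Het libraries. Other genes placed among the 10 were not called higher. The chromatin reader Brd2, between H2-Oa and H2-DMa, had 227 CPM in nuclear Het and 237 CPM in nuclear WT libraries, and Ring1, Slc39a7, Col11a2 and Notch4 were not called. H2-Ke6 and Rxrb were lower (log2 -0.23 ± 0.04 and -0.27 ± 0.04). In nuclear Hom against Het, where 21.8% of tested genes were called lower, 9 of the 17 were lower, 2 higher and 6 not called.

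**Figure D5:**
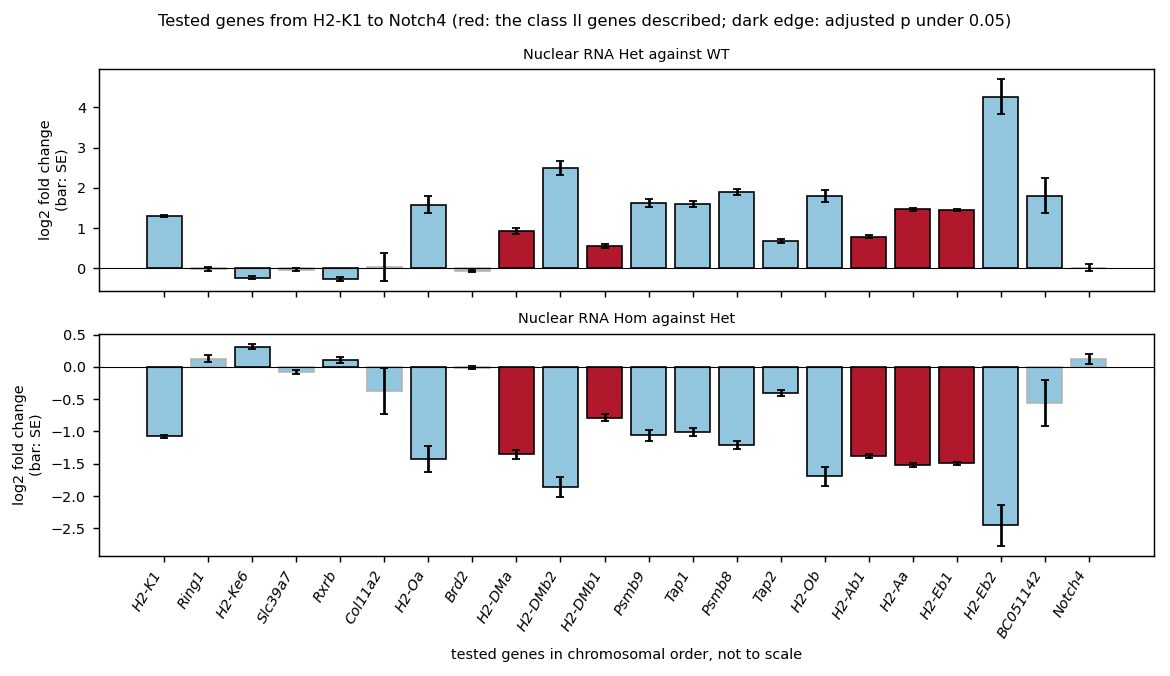
Log2 fold changes with SE bars for the tested genes from H2-K1 to Notch4 in chromosomal order, in nuclear Het against WT (top) and nuclear Hom against Het (bottom). The 5 class II genes in red and the immune genes around them are positive in the top panel and negative in the bottom one, with Ring1, Slc39a7, Col11a2, Brd2 and Notch4 not called in either.

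Over the 18 libraries the 7 genes had Pearson r of 0.907 (H2-DMb1) to 0.990 (Cd74) with the mean log2 level of H2-Aa, H2-Ab1, H2-Eb1 and Cd74. These 4 are part of that mean, so their own r is high by construction. H2-Aa and H2-Eb1 were the closest pair at 0.997. Among 11177 other genes averaging 5 CPM or more, the closest included Unc93b1 (r = 0.955), Slpi (0.950), H2-D1 (0.947), Rassf2 (0.947), Ctss (0.942), Cd68 (0.938), Mpeg1 (0.934), Tyrobp (0.931) and Fcgr3 (0.930). These correlations describe 18 libraries that share 6 groups, so that each is in effect a likeness over 6 group levels. Ctss, Cd68, Mpeg1, Tyrobp and Fcgr3 are genes of myeloid cells, and H2-D1 is a class I heavy chain. In nuclear Hom against WT, where 4 of the 7 class II genes were lower, Ctss, Mpeg1, Slpi and Tyrobp were called higher.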

How the data were processed

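The authors deposited 1 table of raw counts per gene symbol for 18 libraries, with a gene length column used here only for levels per kilobase. Per the labels' protocols, the extraction used TRIzol and the KAPA Stranded mRNA-Seq chemistry prepared the libraries. The submitters' processing notes list mm9 with STAR 2.5.2b, featureCounts, CASAVA and DESeq2, with no settings.

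Groups were taken from the sample titles and genotype labels. Total_WT replicate 1 was used after subtracting the sum of the 9 nuclear columns, a step taken with the data in view. edgeR 4.0.16 under R 4.3.3 fitted the counts by robust quasi-likelihood after filterByExpr and TMM scaling, with Benjamini-Hochberg adjusted p under 0.05 over all tested genes. The nuclear fit held 15112 genes, the total RNA fit 15051 and the fit of all 18 libraries 15410. Fits were checked on simulated counts. Alternatives were DESeq2 1.42.0, other scalings and filters, other sets of libraries, the deposited column, a table without Rn45s and a replicate block.

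The 7 genes and the gene lists were chosen with earlier results of these data known. In each list up to 4 genes with the smallest p were named per comparison, with values for the same genes in others, and H2-Oa, H2-Ob, Lgmn, Brd2 and the genes of the MHC region were also given. The 10 genes most alike in pattern were ranked by Pearson correlation of log2 CPM (prior count 2). Some genes that these rules name are not reported here. Precision is limited by 3 libraries per group and, for Ciita with as few as 135 counts, by counting error.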

Additional observations from a re-analysis of the deposited data

Results flagged for a closer look

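The nuclear-to-total ratio differed between genotypes for all 7 genes in each of 3 comparisons, by the interaction term of the edgeR fit over 18 libraries. For Hom against WT the log2 differences were -1.05 for Cd74, -0.52 for Ciita, -0.32 for H2-Aa, -1.09 for H2-Ab1, -0.997 for H2-DMa, -0.75 for H2-DMb1 and -0.20 for H2-Eb1. For Het against WT they were 0.73 for Cd74, 0.93 for Ciita, 1.29 for H2-Aa, 0.18 for H2-Ab1, 0.49 for H2-DMa, 0.34 for H2-DMb1 and 1.28 for H2-Eb1. For Hom against Het they were -1.78 for Cd74, -1.45 for Ciita, -1.61 for H2-Aa, -1.27 for H2-Ab1, -1.48 for H2-DMa, -1.09 for H2-DMb1 and -1.49 for H2-Eb1. Not every call held under the alternatives. In Hom against WT that of H2-Eb1 was lost under library totals alone (log2 -0.06). That of Ciita was lost with Total_WT replicate 1 as deposited (log2 -0.28). The 3 comparisons share libraries, and the Xist status of the nuclear and total libraries differs within each genotype, so that fraction and animals cannot be told apart.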

How the results depend on the processing

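Of 3102 values recomputed under an alternative, 3032 kept their direction, their call and, for counts, a size within 1.5 times. DESeq2, RLE factors, no filter and the table without Rn45s changed no call of the 7 genes. Same-numbered libraries did not deviate together (r -0.04 to 0.04 over 45 pairs), and with the replicate block, which changed no call, nuclear Het against WT gave 1.28 for Cd74 and 7 of the 7 genes higher.

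Scaling by library totals alone moved the median log2 difference of all genes by 0.18 in nuclear Het against WT, 0.12 in nuclear Hom against WT, -0.05 in nuclear Hom against Het, -0.18 in total Het against WT, -0.03 in total Hom against WT and 0.15 in total Hom against Het. It moved those of nuclear against total RNA by 0.20 in Het, -0.01 in Hom and -0.16 in WT, and those of the ratios by 0.36 for Het against WT, -0.21 for Hom against Het and 0.14 for Hom against WT. The share of calls that were higher moved with it, to 75.9% against 50.9% with TMM in nuclear Het against WT, 73.8% against 48.8% in nuclear Hom against WT, 33.6% against 49.6% in nuclear Hom against Het, 24.5% against 50.5% in total Het against WT and 68.3% against 49.1% in total Hom against Het. For nuclear against total RNA it was 77.3% against 52.5% in Het and 25.4% against 50.1% in WT, and for the ratios 78.6% against 53.4% for Het against WT, 29.1% against 49.8% for Hom against Het and 70.4% against 50.7% for Hom against WT. Genes called higher and lower then numbered 8115 and 2578 in nuclear Het against WT, 6665 and 2362 in nuclear Hom against WT, 2392 and 7387 in total Het against WT, 8542 and 2510 in nuclear against total RNA of Het, 2482 and 7301 in that of WT, and 9450 and 2568 for the ratio in Het against WT. The ratio gave 2961 higher in Hom against Het and 2617 lower in Hom against WT, and total Hom against Het gave 3198 lower. Of the 7 genes, 1 was then higher in nuclear Hom against WT, 4 in total Het against WT, and 5 higher and 0 lower in total Hom against Het, and 0 were higher and 7 lower in nuclear against total RNA of WT.

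The signs that library totals alone turned were those of H2-Aa (0.063) and H2-Eb1 (0.071) in nuclear Hom against WT, H2-Aa (-0.0054) and H2-Eb1 (-0.0184) in total Het against WT, H2-Ab1 (-0.0832) in nuclear against total RNA of WT, and H2-Ab1 (0.0458) and H2-Eb1 (0.1505) in total Hom against Het. H2-Eb1 in total Hom against Het also turned, to 0.0056 with Total_WT replicate 1 as deposited, 0.0287 among genes averaging 5 CPM or more and 0.0027 with only the groups compared, and ran from -0.0268 to 0.015 when single libraries were left out. With Total_WT replicate 1 as deposited, 0 genes were higher in nuclear against total RNA of WT and 0 lower in total Hom against Het, and Ciita in total Hom against WT was not called (log2 0.15). The filter at 5 CPM also gave 0 genes higher in nuclear against total RNA of WT. Without both libraries that stand apart, 1 gene was lower in total Hom against Het. Leaving out single libraries gave 0 to 1 genes higher in nuclear against total RNA of WT and 1 to 2 lower in total Hom against Het. The cause was not tested.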
